A study of Homo sapiens with 3 samples.

Results

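The genes described here encode plasminogen activators, their receptor and inhibitors of proteases, together with cell-surface molecules that hold plasminogen or start clotting. They were taken by name from the deposited table and comprised 9 protein-coding genes, PLAU, PLAUR, PLAT, SERPINE2, SERPINB2, SERPINB8, TFPI2, F3 and ANXA2, of 24254 gene symbols in all. All 9 had a mean of at least 0.5 FPKM over the 3 libraries, the filter used for fold changes, as did 12422 of all symbols. Positions of genes are those of the deposited table, which match GRCh38.

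Plasmin is a serine protease that dissolves fibrin and cuts other proteins of the extracellular matrix. It is released from plasminogen by urokinase (uPA), which works mostly at the cell surface on its receptor uPAR, and by tissue-type activator (tPA), which works mostly on fibrin. Serpins are inhibitors that trap such proteases in an inactive complex. In the liver, stellate cells deposit and remodel matrix during injury and fibrosis, and plasminogen itself is made by hepatocytes.

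LX-2 cells are an established line of stellate cells from human liver. Their mRNA was sequenced without stimulation (vehicle) and after recombinant human FGF19 (rhFGF19) at 50 or 100 ng/mL, in 1 library per condition, so that every difference below was between single libraries and no p-value was computed. Stimulation lasted 24 h by the series record, whereas a descriptive field of the samples has 72 h and 73 h and exchanges the doses. The doses used here follow the titles and the agent field, and values with rhFGF19 are given for 50 and then 100 ng/mL. The values were FPKM, that is sequenced fragments divided by transcript length and by the mapped fragments of the library, which allows levels of different genes to be compared but keeps no read counts, so that the depth is unknown. The FPKM of a library summed to between 276690 and 302243, and 8890 symbols had at least 1 FPKM in vehicle, compared with 10925 and 10894 with rhFGF19. Of 8 mesenchymal and stellate cell markers, 7 had at least 1 FPKM in every library and COL1A2 had no more than 0.14 FPKM in any. The endothelial markers summed to at most 0.50 FPKM per library and the epithelial markers that were listed to at most 0.33 FPKM. Of the blood cell markers, CD68, a marker of macrophages that other cells also express, had 47.5 FPKM in vehicle and 44.2 and 39.8 FPKM with rhFGF19. LYZ had 0.16, 0.03 and 0.03 FPKM, and PTPRC and CD3E were not listed. The part of other cells in the results was not tested. The hepatocyte markers summed to 11.3 FPKM in vehicle and 12.5 and 11.5 FPKM with rhFGF19, most of it SERPINA1. In such bulk samples, fewer cells of a kind and less RNA per cell cannot be told apart.

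Levels of the 9 genes spanned a wide range in unstimulated LX-2 cells. ANXA2 and PLAU came first, at 123 and 115 FPKM, followed by TFPI2 at 67.1, PLAUR at 55.2, SERPINB2 at 36.3, PLAT at 25.4, F3 at 12.2, SERPINB8 at 6.54 and SERPINE2 at 4.60 FPKM. PLAU thus ranked among the top 1.81% of all symbols in vehicle. With rhFGF19, ANXA2 stood apart from PLAU at both doses, SERPINB2 moved above PLAUR, and the other ranks stayed as they were except for SERPINE2 and SERPINB8. Those serpins lay next to each other and changed places between the doses, so their order did not hold beyond the difference between the rhFGF19 libraries.

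**Figure D1:**
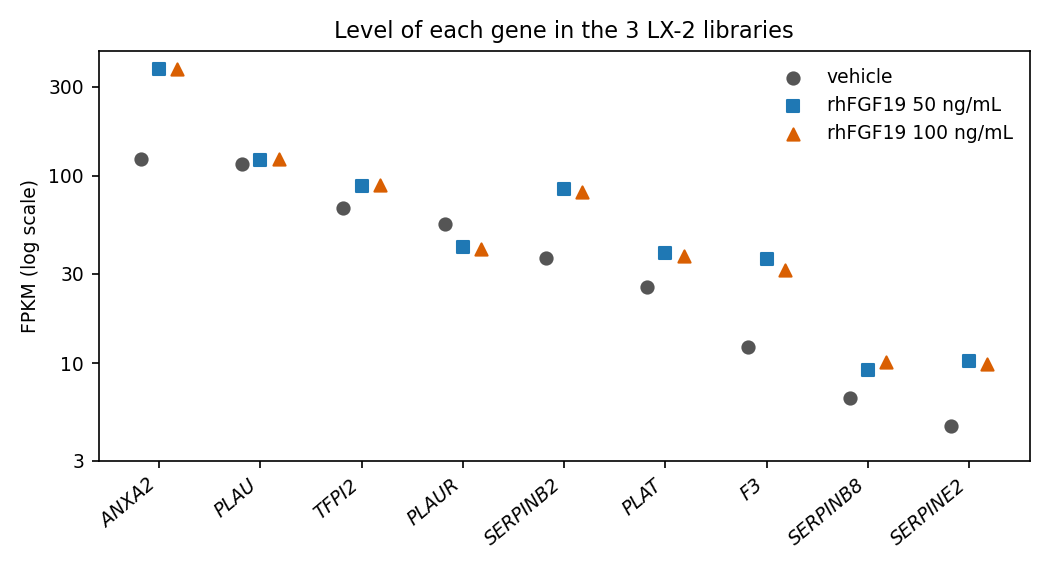
FPKM of each of the 9 genes (log axis) in the vehicle, 50 ng/mL and 100 ng/mL rhFGF19 libraries, 1 point per library and no error bars because each condition had 1 library. The rhFGF19 points lie close together for every gene, ANXA2, SERPINB2, F3 and SERPINE2 lie furthest above their vehicle points, and PLAUR alone lies below.

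Fold changes against vehicle were taken as differences of log2(FPKM + 0.1), where the change of a low gene comes out too small, and a gene was counted at more than 2-fold. At 50 ng/mL, ANXA2, F3, SERPINB2 and SERPINE2, 4 of the 9 genes, were higher by that measure, beside 39.5% of all symbols past the filter. The same 4 genes were higher at 100 ng/mL, beside 38.6% of all symbols. None of the 9 was more than 2-fold lower, beside 1.75% of all symbols at the lower dose and 1.47% at the higher. The 9 genes had median log2 fold changes of 0.60 and 0.62, and all symbols had a median of 0.62 at both doses. On this scale the genes as a group thus lay at the level of the whole table. Values relative to that shift of all symbols are given below for each gene.

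The promoters of ANXA2, F3 and SERPINB2, which were more than 2-fold higher, are shown with that of PLAUR, which was lower than in vehicle, because a short motif recurred in them whichever way the gene went. They were thus chosen for holding the motif, and SERPINE2, also more than 2-fold higher, is not shown because its windows lacked it. The windows are those of RefSeq on GRCh38.p14 and run from 250 bases before to 50 bases after the start of transcription. A search on both strands for TGANTCA, the motif of the AP-1 transcription factors, found a match in 6 of the 10 windows of these genes, those of ANXA2, F3, SERPINB2, SERPINB8, TFPI2 and PLAUR, beside 7.71% of all 35116 windows of that length. The 10 windows covered 8 of the 9 genes. PLAU and SERPINE2, with 2 windows each, had no match, and PLAT had no window and was not searched. Matches are in capitals and all else is in lower case. ANXA2 is at chr15:60397937-60398236 and F3 at chr1:94541710-94542009, both on the minus strand, SERPINB2 is at chr18:63887455-63887754 on the plus strand and PLAUR at chr19:43670120-43670419 on the minus strand.
ANXA2: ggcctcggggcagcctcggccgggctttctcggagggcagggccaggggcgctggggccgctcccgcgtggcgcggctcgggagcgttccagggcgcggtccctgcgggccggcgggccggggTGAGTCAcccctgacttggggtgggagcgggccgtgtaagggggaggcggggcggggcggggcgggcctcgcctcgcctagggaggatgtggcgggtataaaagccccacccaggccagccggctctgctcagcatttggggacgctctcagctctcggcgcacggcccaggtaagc
F3: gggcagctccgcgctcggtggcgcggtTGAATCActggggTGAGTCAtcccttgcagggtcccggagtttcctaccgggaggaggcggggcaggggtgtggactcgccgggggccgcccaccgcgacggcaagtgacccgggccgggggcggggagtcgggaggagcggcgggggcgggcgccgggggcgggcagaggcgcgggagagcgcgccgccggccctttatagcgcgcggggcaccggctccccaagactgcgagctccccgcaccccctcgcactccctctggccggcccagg
SERPINB2: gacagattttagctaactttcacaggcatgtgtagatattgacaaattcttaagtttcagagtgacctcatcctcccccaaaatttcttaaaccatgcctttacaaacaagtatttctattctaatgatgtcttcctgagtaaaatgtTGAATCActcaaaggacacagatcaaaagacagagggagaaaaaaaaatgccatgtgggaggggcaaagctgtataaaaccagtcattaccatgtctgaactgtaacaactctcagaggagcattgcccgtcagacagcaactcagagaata
PLAUR: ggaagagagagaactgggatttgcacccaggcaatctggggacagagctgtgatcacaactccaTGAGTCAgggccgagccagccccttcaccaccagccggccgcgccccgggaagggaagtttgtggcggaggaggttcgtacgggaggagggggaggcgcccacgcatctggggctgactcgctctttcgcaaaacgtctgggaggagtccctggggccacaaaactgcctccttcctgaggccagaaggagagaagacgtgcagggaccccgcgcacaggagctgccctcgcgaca

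The matches began 127 bases before the start in ANXA2, 223 and 210 in F3, 102 in SERPINB2 and 186 in PLAUR. TATAAA, the TATA box, searched on both strands, began 31, 28 and 30 bases before the start in ANXA2, F3 and SERPINB2 and 142 and 140 bases before it, in matches that overlap, in SERPINB8. It was absent from the PLAUR window and from those of PLAU, SERPINE2 and TFPI2, while 11.5% of all windows held it. GGGCGG, the GC box, was found in ANXA2, F3, TFPI2, SERPINE2 and PLAU and in 45.0% of all windows, and CCGGAAG, bound by ETS factors, in SERPINB8 alone and in 10.3% of all windows. The windows of ANXA2 and F3 had 76.0% and 77.3% GC, whereas that of SERPINB2 had 39.0%, beside a median of 58.7% over all windows. A match describes letters only, and no binding was measured here.

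PLAU (ENSG00000122861, chromosome 10 from 73909177 to 73917494, plus strand), which encodes uPA, had 115 FPKM in vehicle and 121 and 124 FPKM with rhFGF19. Its log2 fold changes were 0.07 and 0.10, below the shift of all symbols by 0.55 and 0.52. The level of the urokinase mRNA was thus nearly equal in the 3 libraries. C10orf55, which overlaps PLAU on the opposite strand, was listed at no more than 0.81 FPKM in any library. PLAUR (ENSG00000011422, chromosome 19 from 43646095 to 43670169, minus strand), which encodes uPAR, had 55.2 FPKM in vehicle and 41.6 and 40.7 FPKM with rhFGF19. Both rhFGF19 libraries lay below vehicle, with log2 fold changes of -0.41 and -0.44, and PLAUR was the only one of the 9 genes with a negative value. Relative to all symbols it was lower by 1.03 and 1.05 on the log2 scale. Against genes of similar transcript GC content, a comparison described with the GC trend below, PLAUR had -0.43 and -0.47.

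The ratio of PLAU to PLAUR, both in FPKM, was 2.09 in vehicle and 2.91 and 3.04 with rhFGF19. This increase came from the lower PLAUR values, since PLAU itself moved little. By the measure of likeness used for PLAU, the distance between log2 levels over the 3 libraries among genes of at least 1 FPKM, its nearest genes were HSPA1A at 0.047, HSPA1B at 0.071 and RPS23 at 0.19. HSPA1A and HSPA1B are near-identical copies that can share reads, and over 3 libraries such likeness is mostly one of level.

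ANXA2 (ENSG00000182718, chromosome 15 from 60347134 to 60402883, minus strand) encodes annexin A2, a calcium-dependent membrane protein that with S100A10 binds plasminogen and tPA at the cell surface. It had 123 FPKM in vehicle and 375 and 375 FPKM with rhFGF19, and with log2 fold changes of 1.60 at each dose it was the most raised of the 9 genes, 3.04-fold in both libraries. Relative to all symbols the differences were 0.98 and 0.99. ANXA2 has processed copies that can share its reads. ANXA2P2 (chromosome 9 from 33624274 to 33625293) was listed at 69.97 FPKM in vehicle and 209 and 200 FPKM with rhFGF19, and ANXA2P1 at 0.31, 0.69 and 0.52 FPKM. ANXA2P2 therefore kept a nearly constant ratio to ANXA2, of 0.57, 0.56 and 0.53, and how the reads were divided between them was not tested. The sum of ANXA2 and both copies was 194 FPKM in vehicle and 584 and 575 FPKM with rhFGF19.

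S100A10, the partner of annexin A2 in that complex, was not raised with ANXA2 and lay slightly below vehicle. It had 358 FPKM in vehicle and 328 and 329 FPKM with rhFGF19, with log2 fold changes of -0.12 at both doses. S100A10 exceeded ANXA2 in vehicle and was below it in both rhFGF19 libraries. ENO1, a glycolytic enzyme that also serves as a plasminogen receptor, had 534, 448 and 449 FPKM in the same order. Plasminogen and its receptors had 4 genes past the filter, and 2 of these exceeded vehicle more than 2-fold in both rhFGF19 libraries, beside 36.3% of all symbols, and the median log2 fold changes were 0.65 and 0.45. PLGRKT, a membrane receptor for plasminogen, was low and had 1.3, 3.65 and 2.74 FPKM, and HMGB1, a nuclear protein that binds plasminogen when released, had 7.77, 21.5 and 21.7 FPKM. These were the genes past 2-fold, at 50 ng/mL by 1.42 and 1.46 on the log2 scale, and against genes of similar transcript GC content, a comparison described with the GC trend below, PLGRKT had 0.17 and -0.21 and HMGB1 had -0.0086 and 0.017. On the same scale S100A10 had -0.50 and -0.49 and ENO1 had -0.72 and -0.70. Plasminogen itself, PLG, was listed at 0.01 FPKM in vehicle and at 0 in both rhFGF19 libraries.

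Among the serpins, SERPINB2 (ENSG00000197632, chromosome 18 from 63871692 to 63903888, plus strand), which encodes plasminogen activator inhibitor type 2, was the most abundant of the 3 members. It had 36.3 FPKM in vehicle and 84.7 and 81.8 FPKM with rhFGF19, with log2 fold changes of 1.22 and 1.17, or 2.33-fold and 2.25-fold. Against genes of similar GC content it had -0.087 and -0.12, which ends the call. SERPINB10, which overlaps it on the same strand, was listed at no more than 0.04 FPKM. SERPINE2 (ENSG00000135919, chromosome 2 from 223975045 to 224039290, minus strand) encodes protease nexin-1, a secreted inhibitor of thrombin, uPA and plasmin. It had 4.60 FPKM in vehicle and 10.2 and 9.91 FPKM with rhFGF19, with log2 fold changes of 1.14 and 1.09, just past 2-fold in both libraries, and 0.0013 and -0.025 against genes of similar GC content.

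SERPINB8 (ENSG00000166401, chromosome 18 from 63970029 to 64019779, plus strand), an intracellular serpin known to inhibit furin, had 6.54 FPKM in vehicle and 9.19 and 10.1 FPKM with rhFGF19. Its log2 fold changes of 0.48 and 0.62 were near the shift of all symbols, but it had -0.86 and -0.71 against genes of similar GC content. HMSD, which overlaps it on the same strand, was listed at 0.62, 1.54 and 1.34 FPKM. Together the 3 serpins summed to 47.4 FPKM in vehicle and 104 and 102 FPKM with rhFGF19. The ratio of PLAU to that sum was 2.43 in vehicle and 1.16 and 1.22 with rhFGF19, so it was lower in both rhFGF19 libraries, mostly through SERPINB2. Against genes of similar GC content, PLAU (-0.028 and 0.0045) and SERPINB2 were both close to 0, so that this difference in the ratio was not seen on that scale.

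F3 (ENSG00000117525, chromosome 1 from 94529173 to 94541759, minus strand) encodes tissue factor, the receptor for factor VII that starts the extrinsic clotting pathway. It had 12.2 FPKM in vehicle and 35.8 and 31.6 FPKM with rhFGF19, with log2 fold changes of 1.55 and 1.37, or 2.92-fold and 2.58-fold. F3 was above vehicle in both rhFGF19 libraries and was somewhat lower at the higher dose. Against genes of similar GC content it had 0.19 and 0.03, short of 2-fold. TFPI2 (ENSG00000105825, chromosome 7 from 93885396 to 93890753, minus strand) encodes a secreted Kunitz-type inhibitor of plasmin and other serine proteases that is held in the matrix. It had 67.1 FPKM in vehicle and 88.5 and 89.7 FPKM with rhFGF19, and its log2 fold changes of 0.40 and 0.42 were below the shift of all symbols. TFPI, the related inhibitor of the tissue factor complex, was low and had 0.51, 1.89 and 1.85 FPKM, with log2 fold changes of 1.71 and 1.68, and 0.20 and 0.18 against genes of similar GC content.

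PLAT (ENSG00000104368, chromosome 8 from 42174718 to 42207565, minus strand), which encodes tPA, had 25.4 FPKM in vehicle and 38.6 and 37.4 FPKM with rhFGF19. Its log2 fold changes of 0.60 and 0.56 were within 0.061 of the shift of all symbols. PLAT was above vehicle in both rhFGF19 libraries while PLAU was nearly level, and the ratio of PLAU to PLAT was 4.54 in vehicle and 3.14 and 3.31 with rhFGF19. PLAU remained the more abundant activator mRNA in all 3 libraries.

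The doses gave nearly the same values. None of the 9 genes differed by more than 2-fold between 100 and 50 ng/mL, beside 1.64% of all symbols. The largest difference was that of F3, which was -0.18 on the log2 scale at 100 against 50 ng/mL, followed by SERPINB8 at 0.13, and the median absolute difference was 0.045 for the 9 genes and 0.089 for all symbols. For ANXA2 the difference was 0.00073.

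The fold changes of all genes against vehicle went with transcript GC content, and Spearman's rho was -0.77 at both doses across 12397 genes that share the same 3 libraries and are not independent. The genes described here followed the same pattern in part. PLAUR, PLAU and PLAT had a median transcript GC content of 55.7%, 55.1% and 54.3%, above the median of 51.1% over all symbols past the filter. The other 6 had between 43.5% for F3 and 49.4% for ANXA2. A locally weighted trend on GC content gave an average log2 fold change at 50 ng/mL of 0.83 for genes like ANXA2, 1.31 for genes like SERPINB2, 1.13 for genes like SERPINE2 and 1.36 for genes like F3.

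**Figure D2:**
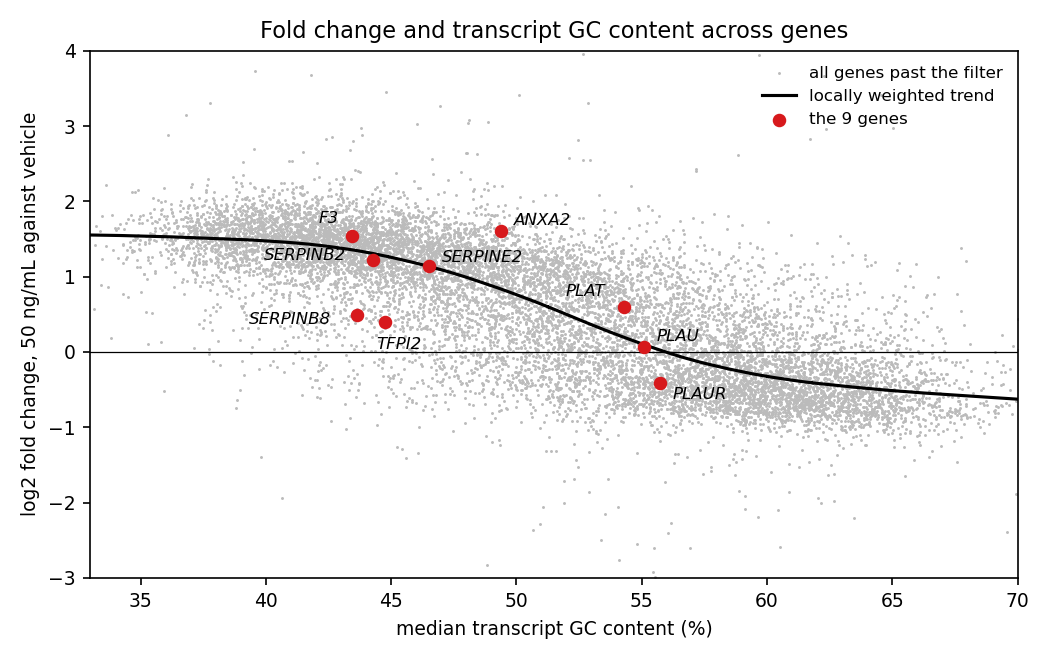
Log2 fold change of rhFGF19 at 50 ng/mL against vehicle (vertical axis) by the median GC content of a gene's transcripts in percent (horizontal axis), with 1 grey point per gene, the locally weighted trend as a line and the 9 genes in red. Of 12397 genes, 93 lie outside the axes. SERPINE2, SERPINB2, F3 and PLAU lie on or close to the line, ANXA2 and PLAT above it, and SERPINB8, TFPI2 and PLAUR below it.

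With that trend removed, which sets each gene against genes of similar GC content, none of the 9 genes was more than 2-fold higher, beside 3.74% of all symbols at 50 ng/mL and 3.33% at the higher dose. None was more than 2-fold lower, beside 5.12% and 4.59%. ANXA2 kept the largest value, 0.77 at 50 ng/mL and 0.79 at 100 ng/mL. PLAT had 0.41 and 0.37. SERPINE2, SERPINB2 and F3 were close to 0, with the values given above. TFPI2 had -0.88 and -0.84, SERPINB8 had -0.86 and -0.71, and PLAUR had -0.43 and -0.47. The sign thus changed for TFPI2, SERPINB8 and SERPINB2 at both doses, for PLAU at 50 ng/mL and for SERPINE2 at 100 ng/mL. Of 973 genes within 1 percentage point of the GC content of TFPI2, the middle 50% had log2 fold changes between 1.03 and 1.56 at 50 ng/mL, above its 0.40. For ANXA2 the corresponding 892 genes lay between 0.35 and 1.26, below its 1.60. SERPINB8 lay below the middle range of its 994 genes, 1.11 to 1.59, and the other 6 genes lay within theirs. With a single vehicle library, the GC trend and rhFGF19 cannot be told apart.

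**Figure D3:**
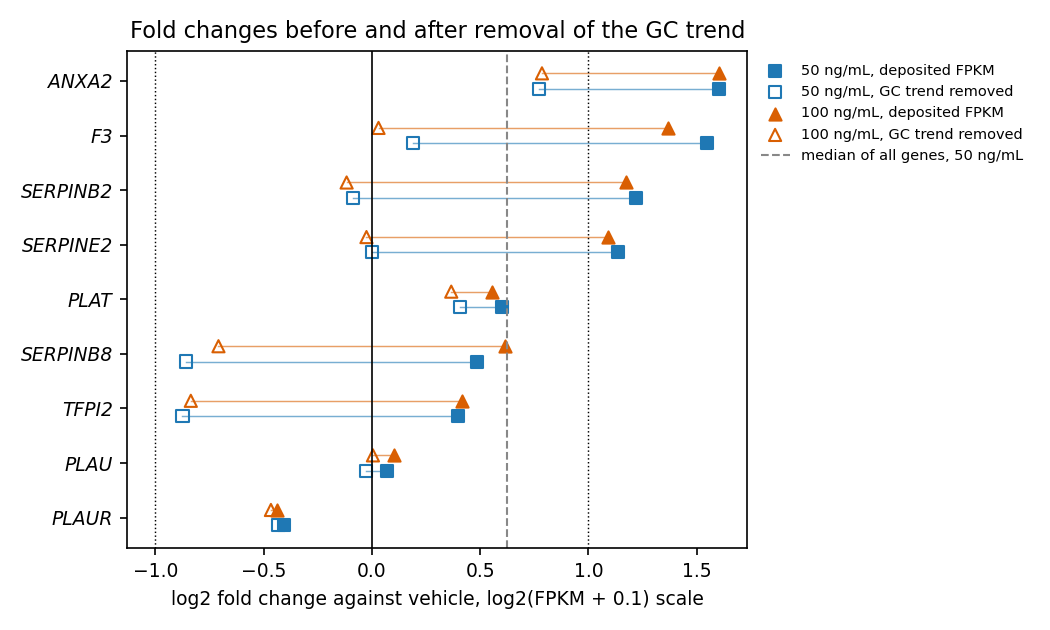
Log2 fold change against vehicle of each gene at 50 ng/mL (squares) and 100 ng/mL (triangles), from the deposited FPKM (filled) and with the trend on transcript GC content removed (open), with dotted lines at 2-fold and a dashed line at the median of all genes at 50 ng/mL. ANXA2, F3, SERPINB2 and SERPINE2 lie past 2-fold only when filled, while PLAUR lies below 0 either way.

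The GC content of a gene depends on which transcripts are counted. For PLAT the median over 9 listed transcripts was 54.3% and the longest transcript had 45.6%, and with the trend on the longest transcript removed its log2 fold change at 50 ng/mL was -0.53 in place of 0.41. For ANXA2, with 35 listed transcripts, the longest had 44.0% and the value was 0.35. This alternative was chosen after seeing the data.

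Other genes of these systems were taken from 6 lists, described here by counts and medians beside the 36.3% of all symbols past the filter that were more than 2-fold higher in both rhFGF19 libraries. Of 10 other serpins past the filter, 2 were higher in both, SERPINB1, an inhibitor of neutrophil proteases, with log2 fold changes of 1.25 and 1.21, and SERPINB9, an inhibitor of granzyme B, with 1.29 and 1.27. With the GC trend removed, SERPINB1 had 0.52 and 0.49 and SERPINB9 had -0.077 and -0.078. SERPINB7 had 2.47 FPKM in vehicle and 5.03 and 6.46 FPKM with rhFGF19, and was past 2-fold at 100 ng/mL alone. The 10 serpins had median log2 fold changes of 0.24 and 0.23. SERPINH1, the collagen chaperone HSP47, was the most abundant of them, at 44.5 FPKM in vehicle and 41.7 and 42.2 FPKM with rhFGF19, with SERPINB6 next at 11.2, 10.2 and 10.4 FPKM.

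Of the receptors that take up or partner uPA, tPA and uPAR, 1 of 6 was more than 2-fold higher in both libraries. This was VLDLR, which was low, at 0.25, 0.64 and 0.79 FPKM, and passed the filter only through the rhFGF19 libraries. With the GC trend removed it had -0.28 and 0.0043. MRC2, a collagen receptor associated with uPAR, was the most abundant, at 28.8, 30.6 and 30.3 FPKM, and IGF2R, which binds uPAR and the latent form of TGF-beta, had 10.8, 19.4 and 19.02 FPKM. These receptors had median log2 fold changes of 0.23 and 0.19.

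Of 4 other inhibitors past the filter, with medians of 0.61 and 0.60, TFPI and THBD were higher in both. THBD, the endothelial thrombin receptor thrombomodulin, was low, at 0.27, 0.78 and 0.77 FPKM. With a mean of 0.61 FPKM it passed the filter only through the rhFGF19 libraries, where it was higher. After the GC trend was removed its log2 fold changes were 1.12 and 1.11. PROCR, the protein C receptor, was the most abundant of them and was level at 26.9, 26.3 and 26.1 FPKM, and SPINT2, a Kunitz inhibitor of membrane serine proteases, had 2.14, 1.69 and 1.56 FPKM. Of 15 clotting factors and thrombin receptors in the table, 3 passed the filter, of which 1 was more than 2-fold higher in both libraries and 1 more than 2-fold lower at 50 ng/mL, with median log2 fold changes of -0.48 and -0.47. F2R, the thrombin receptor PAR-1, had 1.11, 3.35 and 3.28 FPKM, log2 fold changes of 1.51 and 1.48, and 1.38 and 1.35 with the GC trend removed. TGM2, tissue transglutaminase, had 70.1, 50.3 and 50.6 FPKM, and F12, clotting factor XII, had 4.85, 2.31 and 3.25 FPKM. F12 was the gene past 2-fold lower, with log2 fold changes of -1.04 and -0.56, and -0.46 and 0.0098 with the GC trend removed. Thrombin, F2, was listed at no more than 0.06 FPKM and the fibrinogen genes at no more than 0.10 FPKM.

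Of 9 other annexins past the filter, with median log2 fold changes of 0.59 and 0.66, 3 were more than 2-fold higher in both rhFGF19 libraries. ANXA1, which restrains inflammation, had 4.92, 18.8 and 19.1 FPKM, with log2 fold changes of 1.91 and 1.94, above those of ANXA2. ANXA7 had 9.80, 23.8 and 23.0 FPKM and ANXA3 had 1.15, 2.44 and 3.26 FPKM. The most abundant annexins besides ANXA2 went opposite ways, ANXA5 from 106 to 219 and 211 FPKM and ANXA6 from 210 to 132 and 136 FPKM. With the GC trend removed, ANXA1 had 0.43 and 0.46, ANXA7 had -0.064 and -0.094, and ANXA3 had -0.22 and 0.20. ANXA5 had -0.16 and -0.19, and ANXA6 had -0.83 and -0.79. No other annexin that is named here exceeded ANXA2 on that scale, where ANXA2 had 0.77 and 0.79. With the trend of the longest transcript removed, ANXA2 had 0.35 and 0.37, and the other annexins are not given on that scale.

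**Figure D4:**
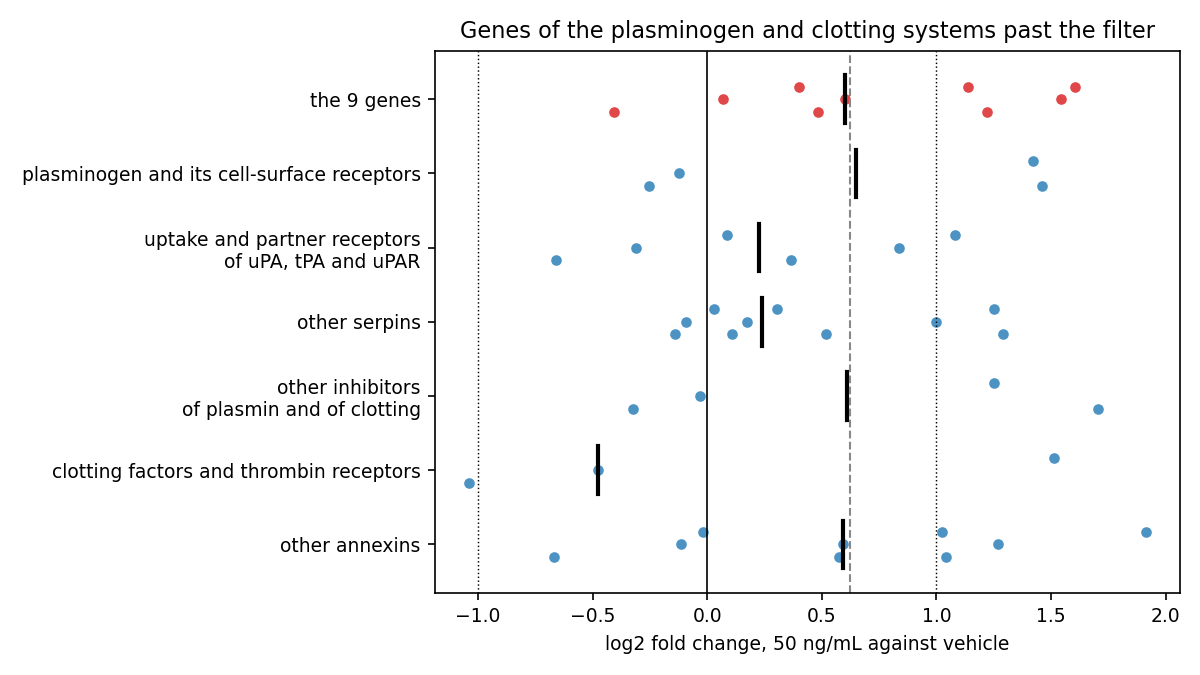
Log2 fold change of rhFGF19 at 50 ng/mL against vehicle for the genes past the filter, 1 point per gene, for the 9 genes (red) and the 6 lists (blue), with thick black bars at each median, a dashed line at the median of all genes and dotted lines at 2-fold. Every row spreads from negative or near-zero values to beyond 2-fold, and the medians lie between -0.48 for the clotting factors and 0.65 for the plasminogen receptors.

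By the annotation that the deposited table carries, 0 of 4 genes under plasminogen activation that passed the filter and 2 of 9 under fibrinolysis were more than 2-fold higher in both rhFGF19 libraries. The counts were 43 of 106 under blood coagulation and 11 of 31 under inhibition of serine endopeptidases, shares of 40.6% and 35.5%. Over all symbols past the filter the share was 36.3%, near both. These terms hold up to 6 of the 9 genes and overlap each other. None of these shares was compared by a test.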

How the data were processed

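The mRNA of 3 LX-2 cultures was sequenced in 1 library each and grouped by the agent field of the sample records. Reads were aligned by the authors with HISAT2, and the deposited values are FPKM, rounded to 2 decimals, for 26108 genes, with no counts. The submitters' processing notes name HISAT2 2.0, StringTie 1.3.0 and Bowtie 0.12.2 and the builds hg19 and mm8 with no role, while the deposited coordinates overlapped GENCODE release 29 on GRCh38 for 99.7% of 25531 genes. Whether the counting used strand is not given in the sources used here.

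From these values, rows sharing a symbol were summed, and log2(FPKM + 0.1) was compared between libraries for symbols that averaged 0.5 FPKM or more, with the study's criterion of more than 2-fold. No p-values were computed. GC content and length were medians over the transcripts listed for a gene, found for 99.8% of symbols past the filter, and trends were fitted by loess (span 0.3) and subtracted. Promoters came from RefSeq, and no protein sequences were compared. The members, the 6 lists, which do not hold every gene of these systems, and the tests were chosen with earlier results of these data known. Named were all members, their pseudogenes, the list genes past 2-fold in both rhFGF19 libraries, the 2 most abundant genes of each list and the 3 genes nearest to PLAU. Genes of the 4 annotation terms were only counted, which departs from that rule, and any further gene was named after its values were seen. There were 11 planned and 3 added alternatives. Python 3.11.15, NumPy 2.4.6, pandas 2.3.3 and statsmodels 0.14.6 were used. The scripts were first tested on simulated data.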

Additional observations from a re-analysis of the deposited data

How the results depend on the processing

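ANXA2, F3 and PLAUR had the same direction at both doses under the alternatives run, of which the filters and the 1.5-fold threshold leave a gene's value as it is, while the other 6 genes changed direction under at least 1. At 50 ng/mL ANXA2 ranged from 0.35 to 1.90, F3 from 0.19 to 1.68 and PLAUR from -0.88 to -0.15 on the log2 scale, and at 100 ng/mL from 0.37 to 1.90, 0.03 to 1.47 and -0.90 to -0.20. PLAU ranged from -0.44 with the length trend removed to 0.34 with quantile normalization.

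The number of genes more than 2-fold higher, 4 at each dose, was 2 at 50 and 2 at 100 ng/mL with the median ratio to vehicle set to 0, 2 and 1 with the length trend removed, and 0 and 0 with the GC trend removed, with that of the longest transcript removed, and with GC and length trends removed. It was 3 and 3 with quantile normalization and 4 and 3 with a pseudocount of 1, where SERPINE2 was the gene lost. Past 1.5-fold it was 5 and 5, where the gene gained was PLAT at 50 ng/mL and SERPINB8 at 100 ng/mL. Of 12422 symbols past the filter, 4903 and 4793 were higher as deposited and 3774 and 3686 with the median ratio set to 0. The counts were 1736 and 1684 with the length trend removed and 1142 and 1046 with quantile normalization. They were 2189 and 2074 with a pseudocount of 1 and 6347 and 6330 past 1.5-fold. Removing trends left 464 and 413 for GC content, 407 and 364 for the longest transcript and 486 and 429 for GC and length. Of the 9 genes, the number lower at 50 ng/mL rose from 0 to 1, TFPI2, with the trend of the longest transcript removed. Of all symbols, 747 were lower under that setting and 217 with the deposited values. Removing a trend centres the values on genes of similar GC content or length. With the GC trend removed, SERPINE2 at 100 ng/mL changed direction to -0.025 and SERPINB2 to -0.087 at 50 and -0.12 at 100 ng/mL. With that of the longest transcript removed, SERPINE2 had -0.26 and -0.29 and SERPINB2 -0.18 and -0.21. With GC and length trends removed, SERPINE2 had -0.024 and -0.049 and SERPINB2 -0.016 and -0.043.

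Of all symbols past 2-fold at 50 ng/mL, 95.8% were higher with the deposited values, 82.9% with the median ratio set to 0, 48.3% with quantile normalization and 42.2% with the GC trend removed. Of the 9 genes, 4 at 50 and 5 at 100 ng/mL lay above the median of all symbols with the deposited values. These numbers were 6 and 7 with a pseudocount of 1 and 7 and 8 with quantile normalization. They were 3 and 4 with the GC trend removed and 2 and 2 with that of the longest transcript removed. 3 of the alternatives, GC content of the longest transcript, both trends together and the mean of both rhFGF19 libraries, were chosen after seeing the data. With 1 library per condition and no counts, neither replicate error nor counting error could be given, and values below 1 FPKM are the least certain.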
